A study of Mus musculus with 15 samples.

Results

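Myl2, Myl3, Myl4, Myl7 and Myl1 are the myosin light chain genes named for the heart, and their rows were taken by symbol from the expression tables of all 15 libraries, 5 of the 23154 genes listed. Each library holds RNA profiles of single cells from mouse hearts at 1 of 4 embryonic stages, E7.75, E8.25, E8.75 or E9.25. The embryos carried Cre under the name of a heart transcription factor gene, either Nkx2-5Cre or Isl1Cre, and all groups also carried Rosa26tdTomato, which marks with red fluorescence the cells where Cre was active and those that arise from them. Each lineage was sampled at all 4 stages, which gives 8 groups of 2 libraries, except that Isl1Cre at E9.25 has 1. The labels do not say how each Cre allele was made, and they describe cells as either sorted or only digested with trypsin before they were picked, without saying which applies to which library. Both titles of every 2-library group carry the same embryo number. The p-values here therefore describe how far the libraries of a group spread, possibly for technical reasons only, and a lineage or a stage cannot be told apart from 1 embryo.

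Myosin moves along actin as a hexamer in which a pair of heavy chains each carries 1 regulatory and 1 essential light chain on its lever arm. The regulatory chain of the adult ventricle is encoded by Myl2 and that of the atrium by Myl7, and phosphorylation of this chain tunes contraction. Myl3 encodes the essential chain of the ventricle and of slow muscle, Myl4 that of the atrium and of embryonic muscle, and Myl1 that of fast skeletal muscle.

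In the mm10 assembly with GENCODE M21 annotation all 5 are protein-coding genes. Myl2 lies at chr5:122100951-122113472 on the plus strand, Myl3 at chr9:110741861-110769798 on the plus strand, Myl4 at chr11:104550663-104595753 on the plus strand, Myl7 at chr11:5896637-5898782 on the minus strand and Myl1 at chr1:66924295-66945404 on the minus strand. Myl2 overlaps Ccdc63, Myl3 overlaps Pth1r and Myl4 overlaps Gm11665, each on the opposite strand, and the sources used here do not say whether counting used strand. The highest library level of these neighbours was 27.8 CPM for Ccdc63, 53.9 CPM for Pth1r and 5.44 CPM for Gm11665, where CPM is a gene's counts scaled to the same total in every cell, averaged over the cells of a library. No pair of the 5 genes, of 10 pairs, shared a stretch of 30 bases in its annotated transcripts.

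The sequence upstream of the RefSeq start is shown for Myl3 and Myl7, a ventricular and an atrial member, because only these 2 of the 5 genes held a CArG box, the motif bound by serum response factor, on either strand of the 250 bases before a listed start. The stretch runs 5′ to 3′ on the gene's strand from 250 to 41 bases before the start (RefSeq, GRCm38.p6), with the CArG box in capitals. Myl3 is read from chr9:110763428-110763637 on the plus strand and Myl7 from chr11:5898823-5899032 on the minus strand.
Myl3: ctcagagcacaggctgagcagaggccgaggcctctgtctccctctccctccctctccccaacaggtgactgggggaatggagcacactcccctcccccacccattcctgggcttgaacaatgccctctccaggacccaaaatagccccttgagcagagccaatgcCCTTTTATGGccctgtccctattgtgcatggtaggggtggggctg
Myl7: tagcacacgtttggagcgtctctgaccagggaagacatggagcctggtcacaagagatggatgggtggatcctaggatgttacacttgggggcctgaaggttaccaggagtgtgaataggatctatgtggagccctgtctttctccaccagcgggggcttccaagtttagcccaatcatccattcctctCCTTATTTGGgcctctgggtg

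A CArG box was found in 1.47% of 32851 mouse promoter windows of the same length. The box starts 85 bases before the Myl3 start and 61 bases before the Myl7 start. None of the 5 genes held a MEF2 site (2.92% of windows) or TNAAGTG, a site of the NKX2-5 type (10.1%). AGATAA, the GATA site searched (9.99%), stood in 1 window of Myl2. The TATA letters searched, TATAAA (12.4%), stood on the reverse strand in the other window of Myl2 and in that of Myl1. These letter matches start 216 bases before the Myl2 start and 95 bases before the Myl1 start, and are not called TATA boxes here. The Myl4 window held none of the 5 motifs searched, all looked for on both strands. A TATA or GATA match could overlap another motif, and no match says only that these letters are not in the window. The RefSeq start of Myl7 is the GENCODE start, while that of Myl3 lies 21817 bases inside the GENCODE gene. The Myl2 starts in the table lie 7762 and 8227 bases upstream of the GENCODE gene start, so its windows are not those of the annotated gene and are not printed.

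Of 1400 cells 1332 passed the filters (738 from Nkx2-5Cre embryos, 594 from Isl1Cre embryos), and library totals ranged from 8165519 to 38321215 counts. The kept cells were clustered without the 5 light chain genes into 14 clusters. Clusters 1, 2, 3, 5 and 6, with 780 cells, had all 12 cardiomyocyte markers raised, and all 780 cells came from E8.25 or later. The names are rebuilt here, not the authors'. At E7.75 no cluster passed as cardiomyocyte-like. The summed level of 12 cardiomyocyte markers was 10950 to 12380 CPM in the Nkx2-5Cre E7.75 libraries and 4936 to 5812 CPM in the Isl1Cre E7.75 libraries, against 18105 to 35635 CPM in all later libraries. Summed blood markers (8 genes, 1 at 0 throughout) were at 1183 to 1416 CPM in the Nkx2-5Cre E8.75 libraries and 222 CPM in the Isl1Cre E9.25 library, against at most 21.8 CPM in the other 12. Their part in the results at those stages was not tested.

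With the 4 stages weighted equally, each of the 5 light chain genes had less RNA in Isl1Cre libraries than in those of Nkx2-5Cre, by 0.28 to 0.75 on the log2 scale. The gap was present at E7.75 and E8.25 and was not detected at E8.75 and E9.25. Each gene rose in both lineages from E7.75 to E8.25, most for Myl2. From E8.25 to E8.75 the 5 genes rose again in Isl1Cre libraries, while none passed the test in Nkx2-5Cre libraries.

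**Figure D1:**
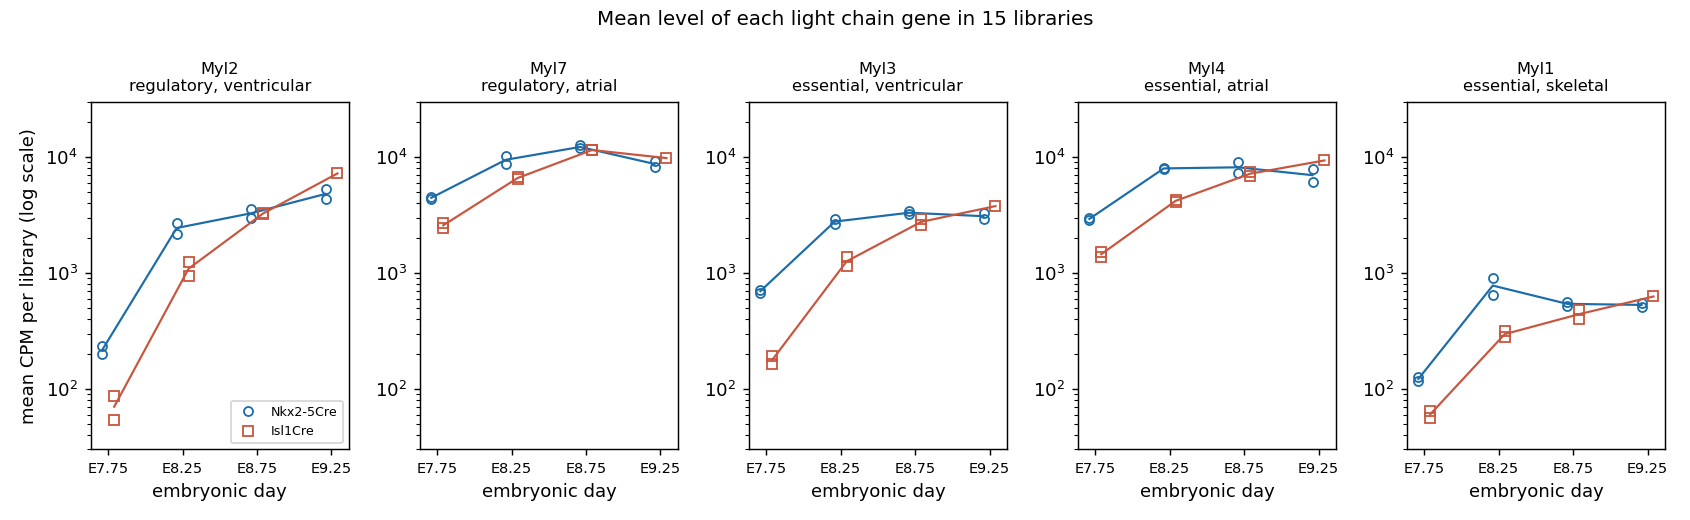
Mean CPM of each light chain gene per library (log axis) against embryonic day. Circles are Nkx2-5Cre and squares Isl1Cre libraries, and lines join the means of the libraries of a stage. At E7.75 and E8.25 both Isl1Cre libraries lie below both Nkx2-5Cre libraries for all 5 genes.

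Myl2, the ventricular regulatory chain, had the widest range. In Nkx2-5Cre libraries it was at 202 and 233 CPM at E7.75, 2708 and 2182 CPM at E8.25, 3561 and 2992 CPM at E8.75, and 5293 and 4331 CPM at E9.25. In Isl1Cre libraries it was at 53.5 and 86.8 CPM at E7.75, 943 and 1237 CPM at E8.25, 3317 and 3205 CPM at E8.75, and 7227 CPM in the single E9.25 library. The lineages did not overlap at E7.75, E8.25 or E9.25, where the single Isl1Cre library was the highest of all 15, and they overlapped at E8.75. In limma, a linear model with moderated variances fitted to log2(CPM + 1) of all genes, Myl2 rose by 3.48 ± 0.18 (log2, SE; adjusted p = 3.61e-10) from E7.75 to E8.25 in Nkx2-5Cre and by 3.89 ± 0.18 (adjusted p = 6.22e-11) in Isl1Cre. In Isl1Cre it rose by a further 1.64 ± 0.18 to E8.75 (limma adjusted p = 2.24e-05) and 1.21 ± 0.23 to E9.25 (limma adjusted p = 0.0158). The last of these calls was lost when either Isl1Cre E8.75 library was left out (limma adjusted p = 0.0656 without replicate 1 and 0.0886 without replicate 2).

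Myl7, the atrial regulatory chain, was already high at the first stage and was highest at E8.75 in both lineages. Nkx2-5Cre libraries held 4536 and 4383 CPM at E7.75, 10266 and 8695 CPM at E8.25, 11875 and 12610 CPM at E8.75, and 9204 and 8262 CPM at E9.25. Isl1Cre libraries held 2444 and 2712 CPM at E7.75, 6789 and 6418 CPM at E8.25, 11463 and 11560 CPM at E8.75, and 9815 CPM at E9.25. Both E9.25 libraries of Nkx2-5Cre were below both E8.75 libraries, a fall of 0.50 ± 0.10 on the log2 scale (limma adjusted p = 0.0114). It was the only 1 of the 5 genes that limma called lower between any neighbouring stages, in a step where 0.797% of 10665 tested genes were called lower. Without Nkx2-5Cre E8.75 replicate 2 the limma adjusted p of this fall was 0.178, and without Nkx2-5Cre E9.25 replicate 2 it was 0.233. These E8.75 libraries are those with the high blood markers. Endothelial-like cells were 15.4% and 19.4% of the Nkx2-5Cre E9.25 cells, against 8.51% and 3.41% at E8.75. Without the endothelial-like and endoderm-like cells the change was -0.32 (limma adjusted p = 0.0862), and within cardiomyocyte-like cells it was -0.34 ± 0.08 (limma adjusted p = 0.0486).

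Myl3, the ventricular essential chain, differed most between the lineages at E7.75. It stood at 715 and 678 CPM in Nkx2-5Cre and at 163 and 192 CPM in Isl1Cre, a difference of -1.92 ± 0.12 on the log2 scale (limma adjusted p = 9.25e-09). At E8.25 the Nkx2-5Cre libraries held 2913 and 2642 CPM and the Isl1Cre libraries 1144 and 1378 CPM. The values were closer later, with 3424 and 3200 CPM against 2596 and 2923 CPM at E8.75, and 3263 and 2918 CPM against 3778 CPM at E9.25. Myl3 levels in Nkx2-5Cre at E8.25, E8.75 and E9.25 lay within 2642 to 3424 CPM.

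Myl4, the atrial and embryonic essential chain, was at 2848 and 3008 CPM in Nkx2-5Cre and at 1375 and 1531 CPM in Isl1Cre at E7.75. In Nkx2-5Cre it then stayed between 6096 and 9030 CPM in all 6 later libraries. Both E9.25 libraries (7872 and 6096 CPM) were below both E8.25 libraries (8084 and 7892 CPM), by a small margin. The E8.75 libraries (7306 and 9030 CPM) overlapped both of these stages. In Isl1Cre it was at 4090 and 4297 CPM at E8.25, 6935 and 7441 CPM at E8.75, and 9361 CPM at E9.25, the highest Myl4 level of the series. The rise in Isl1Cre from E8.25 to E8.75 was 0.82 ± 0.13 (log2; limma adjusted p = 0.000467).

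Myl1, the fast skeletal essential chain, had counts in every library, and at E7.75 its thinned share of cells, given further on, was within the background interval in both lineages. Nkx2-5Cre libraries held 116 and 127 CPM at E7.75, 908 and 649 CPM at E8.25, 519 and 564 CPM at E8.75, and 549 and 511 CPM at E9.25. Isl1Cre libraries held 64.1 and 56.5 CPM at E7.75, 315 and 278 CPM at E8.25, 399 and 484 CPM at E8.75, and 627 CPM at E9.25. Both Nkx2-5Cre E8.25 libraries were above the other 13, and their mean of 779 ± 183 CPM (SD, n = 2) was the highest of Myl1. Skeletal muscle markers (6 genes) summed to 21.7 to 65.2 CPM in these libraries. One of the 6 was at 0 throughout and 4 were under 5 CPM in every library.

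Taken as a share of each gene's own highest stage mean, the ventricular genes started lower than the atrial ones. At E7.75 in Nkx2-5Cre, Myl2 was at 4.51% of its highest stage, Myl1 at 15.6%, Myl3 at 21%, Myl4 at 35.9% and Myl7 at 36.4%. At E7.75 in Isl1Cre the order was the same except that Myl3 came before Myl1, with Myl2 at 0.971%, Myl3 at 4.70%, Myl1 at 9.63%, Myl4 at 15.5% and Myl7 at 22.4%. By E8.25 the Nkx2-5Cre libraries had reached 50.8% for Myl2 and 77.4% to 100% for the other 4. The Isl1Cre libraries at E8.25 had reached 15.1% for Myl2, 33.4% for Myl3 and 44.8% to 57.4% for Myl1, Myl4 and Myl7. These shares are set by the stage means alone and carry no test between genes.

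Against the background of all genes, the stage counts were as follows. From E7.75 to E8.25, 5 of 5 light chain genes rose in Nkx2-5Cre, where 7.92% of tested genes were called higher, and 5 of 5 in Isl1Cre, where 7.97% were. From E8.25 to E8.75, 5 of 5 rose in Isl1Cre, where 5.52% of genes were called higher, and 0 of 5 were called by limma in Nkx2-5Cre, where 0.244% of genes were called in either direction. In that Nkx2-5Cre step 4 of the 5 had an unadjusted limma p under 0.05, and edgeR and DESeq2 also called 0. From E8.75 to E9.25, limma called 1 of 5 higher in Isl1Cre (Myl2), where 0.216% of genes were called higher. In the single Isl1Cre E9.25 library Myl1, Myl3 and Myl4 were also above their E8.75 means, though not called. These went from 441 to 627 CPM, from 2759 to 3778 CPM and from 7188 to 9361 CPM, while Myl7 went from 11512 to 9815 CPM.

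Between the lineages, averaged over stages, 5 of 5 genes were lower in Isl1Cre, where 3.68% of tested genes were called lower. Myl3 differed by -0.75 ± 0.06 on the log2 scale (limma adjusted p = 1.08e-06), Myl1 by -0.58 ± 0.09 (limma adjusted p = 0.000539) and Myl2 by -0.53 ± 0.10 (limma adjusted p = 0.00268). The values of the atrial members were nearer to 0, Myl4 at -0.40 ± 0.07 (limma adjusted p = 0.00145) and Myl7 at -0.28 ± 0.05 (limma adjusted p = 0.00286). The average rests on the early stages: 2 of 5 were called without the E7.75 libraries and 1 of 5 without the E8.25 libraries. With each group averaged to 1 value, so that the 4 stages are the only replicates, the same differences were between -0.28 and -0.74 and 0 of 5 were called, where limma called 1 gene of all tested.

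At E7.75 the 5 genes were lower in Isl1Cre by 0.75 (Myl7) to 1.92 (Myl3) on the log2 scale, where 3.8% of genes were called lower. Of these, Myl1 was called by limma (-0.96 ± 0.16, adjusted p = 0.00125) and not by edgeR (adjusted p = 0.0983) or DESeq2 (adjusted p = 0.0579) on recovered counts. At E8.25 the 5 were lower by 0.55 (Myl7) to 1.4 (Myl1), where 2.61% were called lower. The 12 cardiomyocyte markers moved beside them at E8.25, with a summed level of 18105 to 18383 CPM in Isl1Cre and 29021 to 30307 CPM in Nkx2-5Cre, 9 of 12 called lower and a median of -0.93, and their part in this result was not tested. At E8.75 limma called 0 of 5, where 0.319% of genes were called in either direction, and the differences lay between -0.30 and 0.00. At E9.25 limma again called 0 of 5, where 0.975% of genes were called, and all 5 differences were above 0, from 0.25 ± 0.12 (Myl7) to 0.67 ± 0.23 (Myl2). An unadjusted limma p under 0.05 was reached by 1 of 5 at E8.75 and 3 of 5 at E9.25, and edgeR and DESeq2 called 0 at both. At E9.25 the comparison has 1 Isl1Cre library, which the fit assumes to vary like the others.

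**Figure D2:**
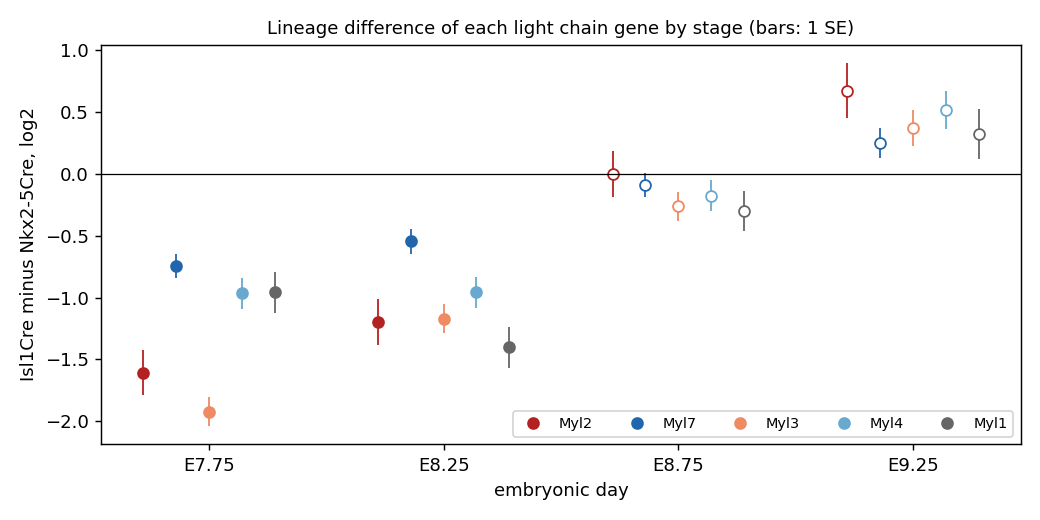
Isl1Cre minus Nkx2-5Cre difference (log2, vertical axis) of each light chain gene at each stage, with bars of 1 SE from limma. Filled points have an adjusted p under 0.05. All 5 points are filled and below 0 at E7.75 and E8.25, and all are open at E8.75 and E9.25.

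The lineage difference itself changed with stage. Tested as the difference between the linear slopes over the 4 stages, 5 of 5 genes gained more per day in Isl1Cre, where 1.88% of tested genes had a called positive slope difference. It was 1.61 ± 0.18 log2 units per day for Myl2 (limma adjusted p = 3.05e-05) and 1.56 ± 0.12 for Myl3 (limma adjusted p = 2.22e-07). It was 1.04 ± 0.12 for Myl4, 0.99 ± 0.16 for Myl1 and 0.69 ± 0.10 for Myl7. Without the single Isl1Cre E9.25 library that of Myl1 was 0.67 (limma adjusted p = 0.158). Within cardiomyocyte-like cells from E8.25 on, 4 of 5 had a called positive difference (Myl7 did not), where 0.509% of genes did.

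A library mean joins the number of cells of each type with the RNA of each cell, which in whole libraries cannot be told apart, so the comparison was repeated within cardiomyocyte-like cells of the 11 libraries from E8.25 on with at least 10 such cells. These cells made up 62.4% and 66.7% of the Isl1Cre E8.25 libraries, against 83.0% and 77.4% of the Nkx2-5Cre E8.25 libraries. Most of them were in cluster 5 in Isl1Cre (98 of 120) and in clusters 1, 2 and 6 in Nkx2-5Cre (45, 34 and 41 of 150). Within them 5 of 5 genes were still lower in Isl1Cre at E8.25, where 1.65% of genes were called lower.

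At E8.25 Myl2 averaged 1417 ± 253 CPM (SD, n = 2) in cardiomyocyte-like cells of Isl1Cre and 2820 ± 286 CPM in those of Nkx2-5Cre, a difference of -1.02 ± 0.12 on the log2 scale (limma adjusted p = 0.000261). Myl1 differed by -1.20 ± 0.14, Myl3 by -0.91 ± 0.09 and Myl4 by -0.74 ± 0.10. Myl7 differed by -0.35 ± 0.08 (limma adjusted p = 0.0180), with 8721 ± 653 CPM against 10968 ± 713 CPM. Averaged over the 3 stages 2 of 5 were called, Myl1 (-0.45 ± 0.09) and Myl3 (-0.32 ± 0.06), where 0.803% of genes were called lower. From E8.25 to E8.75 in Isl1Cre, 4 of 5 rose in these cells, where 3.08% of genes were called higher, and Myl1 did not pass (0.33 ± 0.14, limma adjusted p = 0.183).

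Over the last step the 2 regulatory chains moved in opposite directions in these cells of Nkx2-5Cre. In this lineage from E8.75 to E9.25, Myl2 rose by 0.71 ± 0.12 (limma adjusted p = 0.00840), from 3427 ± 523 to 5524 ± 542 CPM, and Myl7 fell as given above, from 12976 ± 255 to 10143 ± 296 CPM, where 0.431% of genes were called higher and 0.539% lower. In Isl1Cre over the same step Myl2 rose by 1.11 ± 0.15 (limma adjusted p = 0.00192), from 3611 ± 144 CPM to 7499 CPM in the single E9.25 library, where 0.0784% of genes were called higher. Myl7 there went from 12659 ± 176 to 10063 CPM, a difference of -0.28 ± 0.10 that did not pass (limma adjusted p = 0.346). Myl3, Myl4 and Myl1 passed in neither lineage over this step.

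Detection was compared after thinning every cell of at least 5000 counts to 5000 counts, which left out 50 of the 1332 kept cells. In the 177 Nkx2-5Cre cells of E7.75, at least 1 thinned count was present in 100% for Myl7, 98.3% for Myl4, 78.5% for Myl3, 44.6% for Myl2 and 26.0% for Myl1. In the 170 Isl1Cre cells of E7.75 the shares were 90% for Myl7, 74.7% for Myl4, 32.4% for Myl3, 18.2% for Myl2 and 15.3% for Myl1. Without thinning, the Nkx2-5Cre shares were 91.9% or more and the Isl1Cre shares 73.1% or more for every member, at median depths of 267000 and 111800 counts per cell.

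Endothelial-like and endoderm-like cells, types not known for these genes, served as the background, and the source of their counts was not tested. At E7.75 their thinned shares with Myl2 were 5 of 21 cells in Nkx2-5Cre (23.8%, exact 95% interval 8.22 to 47.2%) and 5 of 36 in Isl1Cre (13.9%, 4.67 to 29.5%). All other cells had Myl2 in 47.4% (39.4 to 55.6%) in Nkx2-5Cre and in 19.4% (13.1 to 27.1%) in Isl1Cre. The Isl1Cre share is within the interval of the background, so Myl2 in Isl1Cre cells at E7.75 was not detectable above it at this depth. Mean Myl2 was 38.8 CPM in endothelial-like and 14.9 CPM in endoderm-like cells of Isl1Cre E7.75. Over all cells of these libraries it was 70.2 CPM, and the difference in level was not tested. Myl3 in the other Isl1Cre cells, at 38.1% (29.8 to 46.8%), was above its background of 11.1% (3.11 to 26.1%). Myl4 there was at 83.6% (76.2 to 89.4%) against 41.7% (25.5 to 59.2%), and Myl7 at 91.8% (85.8 to 95.8%) against 83.3% (67.2 to 93.6%), which is within the background's interval. Both Myl7 shares are near the ceiling, so detection can separate these cells little. By level, Myl7 averaged 457 CPM in endothelial-like and 298 CPM in endoderm-like cells of Isl1Cre E7.75. The mean over all cells of the Isl1Cre E7.75 libraries was 2578 CPM, and this difference was not tested. Myl1 was within its background interval in both lineages, at 28.2% against 9.52% (1.18 to 30.4%) in Nkx2-5Cre and 17.9% against 5.56% (0.68 to 18.7%) in Isl1Cre. Its level in Isl1Cre was 16.5 CPM in the endothelial-like and 5.02 CPM in the endoderm-like cells, against a library mean of 60.3 CPM. Median depths in Isl1Cre were 110600 counts in the background cells and 120300 in the others. Intervals cover counting of cells only, and cells of 1 library share their embryo.

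**Figure D3:**
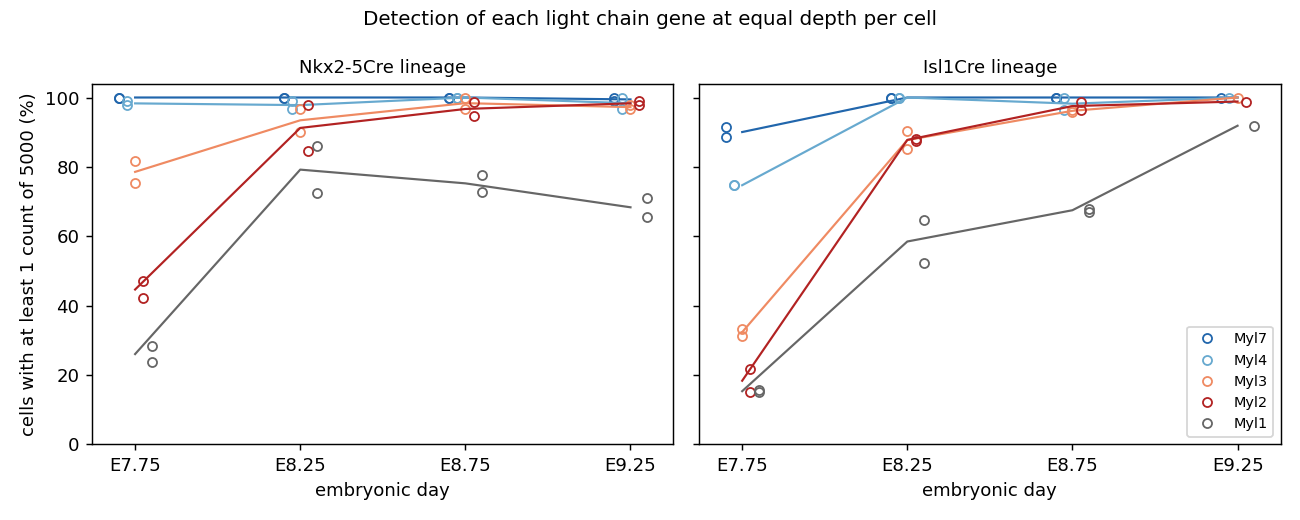
Share of cells (percent, vertical axis) with at least 1 count of each light chain gene after thinning to 5000 counts per cell, by embryonic day, for Nkx2-5Cre (left) and Isl1Cre (right). Points are libraries and lines join stage means. At E7.75 the Isl1Cre shares lie below the Nkx2-5Cre shares for all 5 genes, and Myl2 goes from 44.6% to 91.3% of cells in Nkx2-5Cre by E8.25 and from 18.2% to 87.8% in Isl1Cre.

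Within a cell, detection at 5000 counts followed the order Myl7, Myl4, Myl3, Myl2, Myl1, meaning that a cell with a later gene also had all earlier ones, at E7.75 in 153 of 177 cells from Nkx2-5Cre (86.4%) and 121 of 170 from Isl1Cre (71.2%). The order is that of the genes' levels at E7.75, so it follows in part from abundance. At E7.75 in Nkx2-5Cre, 98 cells had Myl7 without Myl2 and 0 had Myl2 without Myl7. In Isl1Cre at E7.75, 124 cells had Myl7 without Myl2 and 2 had the reverse. All 5 genes were present together in 29 cells of the former group and 6 of the latter, and at E8.25 in 140 of 183 and 88 of 180 cells.

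The background level also bears on the later stages. Endothelial-like cells at E9.25 in Nkx2-5Cre (32 cells) averaged 1130 CPM of Myl2 and 1630 CPM of Myl7, against 5524 and 10143 CPM in cardiomyocyte-like cells. The ratio of Myl7 to Myl2 was 1.44 in the former and 1.84 in the latter. At E8.25 in Nkx2-5Cre the ratio was 4.05 in 18 endothelial-like cells and 3.89 in cardiomyocyte-like cells. At E8.75 it was 3.09 in 11 endothelial-like cells of Nkx2-5Cre against 3.77, and 2.31 in 14 of Isl1Cre against 3.52. Both cell classes had fewer Myl7 counts per Myl2 count at later stages in Nkx2-5Cre, and light chain levels in endothelial-like cells are not read as expression.

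At E7.75, before any cardiomyocyte-like cluster, the light chain genes differed among the clusters. Cluster 4, with 108 of its 109 cells from Nkx2-5Cre E7.75 and Amph, Sfrp5 and Fgf8 among its leading genes, averaged 5913 CPM of Myl7, 3936 CPM of Myl4, 982 CPM of Myl3 and 260 CPM of Myl2. Cluster 9, with 64 of 65 cells from Isl1Cre E7.75 and Myocd, the cofactor of serum response factor, as its leading gene, averaged 5642 CPM of Myl7 and 3140 CPM of Myl4, but 386 CPM of Myl3 and 115 CPM of Myl2. Myocd was also among the 10 leading genes of cluster 4, and Sfrp5 was also among those of clusters 8 and 9. The heart progenitor-like cluster 8, with 69 of 70 cells from Isl1Cre E7.75, had 7 of the 13 markers of its class raised. It averaged 903 CPM of Myl7, 450 CPM of Myl4, 45.6 CPM of Myl3 and 35.5 CPM of Myl2. The last 2 values were below those of the whole endoderm-like cluster 12 (176 CPM of Myl3 and 135 CPM of Myl2). That cluster joins 12 cells of Nkx2-5Cre E7.75, 14 of Isl1Cre E7.75 and 14 of Isl1Cre E8.25. Its Isl1Cre E7.75 cells alone averaged 39.9 CPM of Myl3 and 14.9 CPM of Myl2, below cluster 8. Cluster 10, with 53 of 64 cells from Nkx2-5Cre E7.75, had medians of 1979 CPM of Myl7 and 1363 CPM of Myl4. Its medians of Myl3 and Myl2 were 231 and 78.7 CPM. In cluster 9 the medians of Myl7, Myl4, Myl3 and Myl2 were 5313, 2950, 286 and 61.9 CPM. In cluster 8 they were 573, 275, 24.5 and 27.4 CPM. Clusters 4, 8, 9 and 10 each come mostly from 1 group, so a cluster cannot be told apart from its libraries, and no test is given.

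Among cardiomyocyte-like cells the atrial genes varied least from cell to cell and the ventricular genes more. The coefficient of variation of CPM across cells, within each of the 11 libraries, had a median of 28.8% for Myl4 (21.8 to 38.9%) and 30.8% for Myl7 (22.2 to 38.7%). It was 52.3% for Myl3 (39.1 to 66.8%), 84.7% for Myl2 (55.5 to 97.3%) and 77.1% for Myl1 (57.0 to 119%). Cluster 6, led by Cck and then Nppa, averaged 7054 CPM of Myl2. Cluster 1, led by Nppa and with the globin genes Hbb-bh1 and Hba-x among its 10 leading genes, averaged 5927 CPM of Myl2. Cck was also among the 10 leading genes of cluster 3. That cluster averaged 2298 CPM of Myl2 with the highest Myl7 level of any cluster, 14214 CPM. Cluster 2, led by Tdgf1, averaged 1857 CPM of Myl2 with 11508 CPM of Myl7.

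The regulatory chains of atrium and ventricle were also compared within single cells. Of cells with at least 5000 counts, those with at least 1000 CPM of both Myl2 and Myl7 were 3.41% and 3.37% of the Nkx2-5Cre E7.75 libraries and 0% of both Isl1Cre E7.75 libraries. They were 69.6% and 59.3% against 30.7% and 34.8% at E8.25, 68.5% and 64.7% against 71.4% and 69.9% at E8.75, and 84.4% and 64.4% against 97.7% at E9.25. Cells with Myl2 but not Myl7 at that level numbered 1 in all 15 libraries, in Nkx2-5Cre E9.25 replicate 2. Myl7 without Myl2 was found at E8.25 in 25.1% of the Nkx2-5Cre cells and in 60.6% of the Isl1Cre cells. At E9.25 those shares were 18.3% and 2.33%.

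The share of cells with at least 1000 CPM of Myl2 differed between the lineages by -2.10 percentage points over the 4 stages (50.3% in Isl1Cre and 52.4% in Nkx2-5Cre; exact two-sided permutation test within stages, p = 0.775 over 648 arrangements, of which the smallest possible p is 0.00309; Benjamini-Hochberg adjusted p = 0.775). It was lower in both Isl1Cre libraries at E7.75 and E8.25, and higher at E8.75 and E9.25. The sum of opposite signs gave a mean near 0, and a p this high does not show that the shares are alike. Without the Isl1Cre E9.25 library the difference was -10.3 points (exact permutation p = 0.176).

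**Figure D4:**
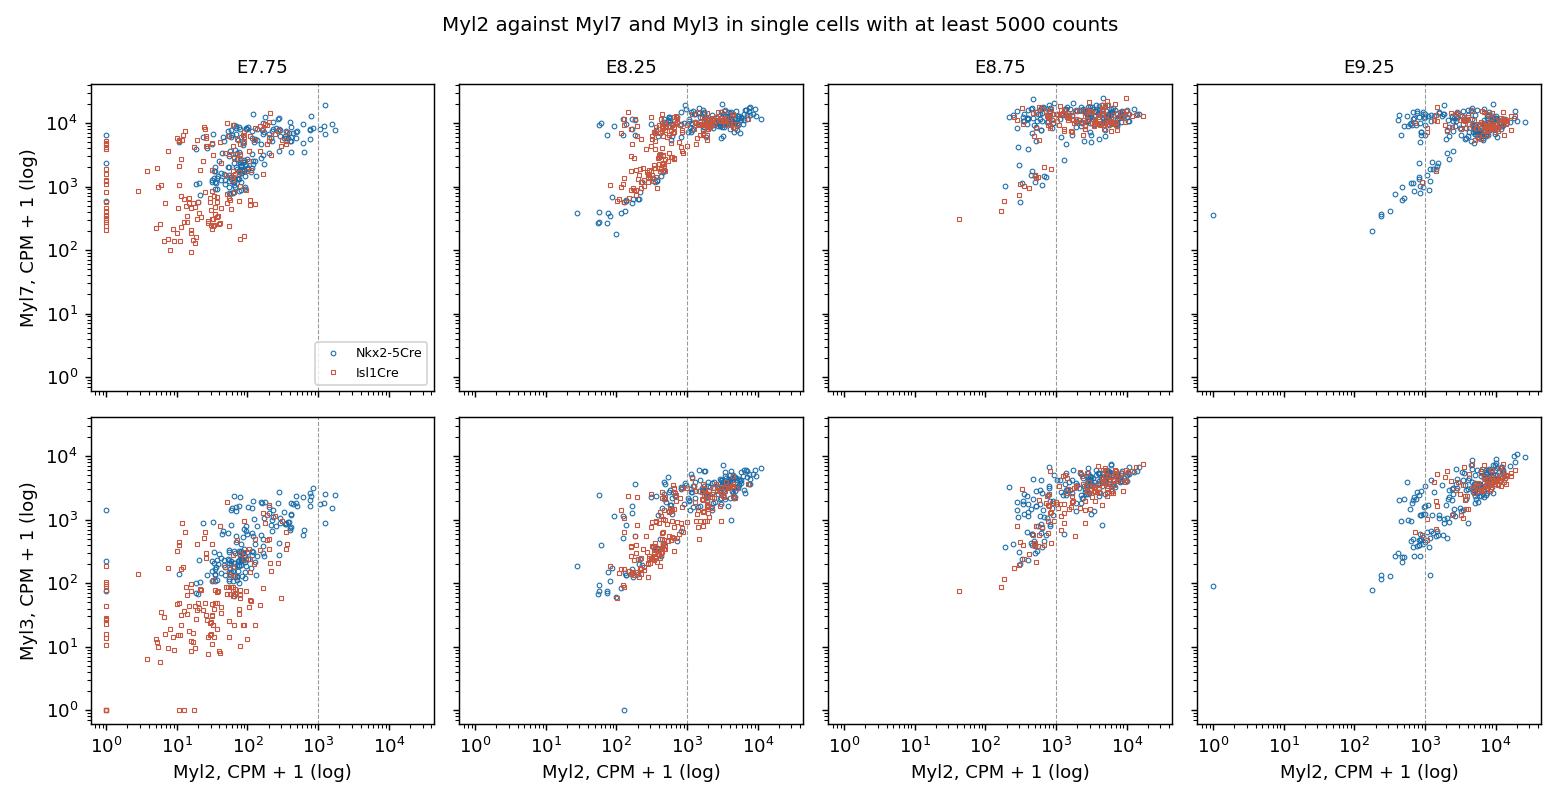
Myl2 (horizontal axis, CPM + 1) against Myl7 (top) and Myl3 (bottom; CPM + 1) in single cells with at least 5000 counts, by stage, on log axes. Circles are Nkx2-5Cre and squares Isl1Cre cells, and the dashed line marks 1000 CPM of Myl2. From E8.25 on, cells with high Myl7 spread over a wide range of Myl2, while Myl3 is higher in cells with more Myl2.

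The summed ventricular chains were set against the summed atrial chains in each cell, as log2 of (Myl2 + Myl3 + 100) over (Myl4 + Myl7 + 100) in CPM. This ratio follows a cell's balance across stages and is not a count of protein. Its median was -2.89 and -2.84 in Nkx2-5Cre and -2.95 and -3.20 in Isl1Cre at E7.75. It was -1.70 and -1.61 against -2.08 and -1.93 at E8.25, -1.45 and -1.96 against -1.51 and -1.66 at E8.75, and -0.87 and -0.94 against -0.64 at E9.25. Ratios above 0, where the ventricular sum exceeds the atrial one, occurred at E9.25 in 10 of 180 cells from Nkx2-5Cre and 4 of 86 from Isl1Cre, in 1 of 129 Isl1Cre cells at E8.75 and in 0 cells of the other 5 groups. Of the regulatory sum, Myl2 made up 4.65% ± 0.56 (SD, n = 2) at E7.75 and 35.5% ± 1.5 at E9.25 in Nkx2-5Cre, and 2.62% ± 0.68 and 42.4% in Isl1Cre. Of the essential sum of Myl1, Myl3 and Myl4, Myl3 made up 18.6% ± 1.2 and 29.3% ± 1.9 in Nkx2-5Cre, and 10.5% ± 0.4 and 27.4% in Isl1Cre.

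Across cardiomyocyte-like cells within a library, the highest median correlations among the 4 cardiac members were those of the same-chamber pairs. The Spearman correlation of Myl2 and Myl3, both ventricular, had a median of 0.699 over 11 libraries of 48 to 84 cells (0.486 to 0.785), and that of Myl4 and Myl7, both atrial, 0.679 (0.435 to 0.736). That of the regulatory chains Myl2 and Myl7 had a median of 0.018 (-0.258 to 0.529) and was below 0 in 5 of 11 libraries. For the essential chains Myl3 and Myl4 it had a median of 0.399 (-0.031 to 0.707), and for Myl3 with Myl7 0.255 (-0.235 to 0.763). The Isl1Cre E8.25 libraries had another order: Myl3 with Myl7, at 0.763 and 0.685, was above both same-chamber pairs in both of them, and in replicate 2 so was Myl3 with Myl4, at 0.707. Myl1 followed Myl2 (0.590, 0.421 to 0.727) more than Myl7 (0.173, -0.276 to 0.524). These are descriptions across cells that share a library and its depth differences, and CPM of a cell sums to a fixed total, which ties the abundant genes to each other.

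The link of Myl2 with Myl7 differed by stage. Its Spearman correlation was 0.265 to 0.529 in the 4 E8.25 libraries, -0.076 to 0.179 in the 4 E8.75 libraries and -0.258 to -0.057 in the 3 E9.25 libraries. That of Myl2 and Myl3 was 0.535 to 0.707, 0.659 to 0.729 and 0.486 to 0.785 at those stages. That of Myl7 and Myl1 was 0.173 to 0.524 at E8.25 and -0.276 to -0.260 at E9.25. Over all cells of all 15 libraries, in which cells of other types add to every correlation, Myl4 and Myl7 had a median of 0.831, Myl2 and Myl3 0.748, and Myl2 and Myl7 0.296.

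**Figure D5:**
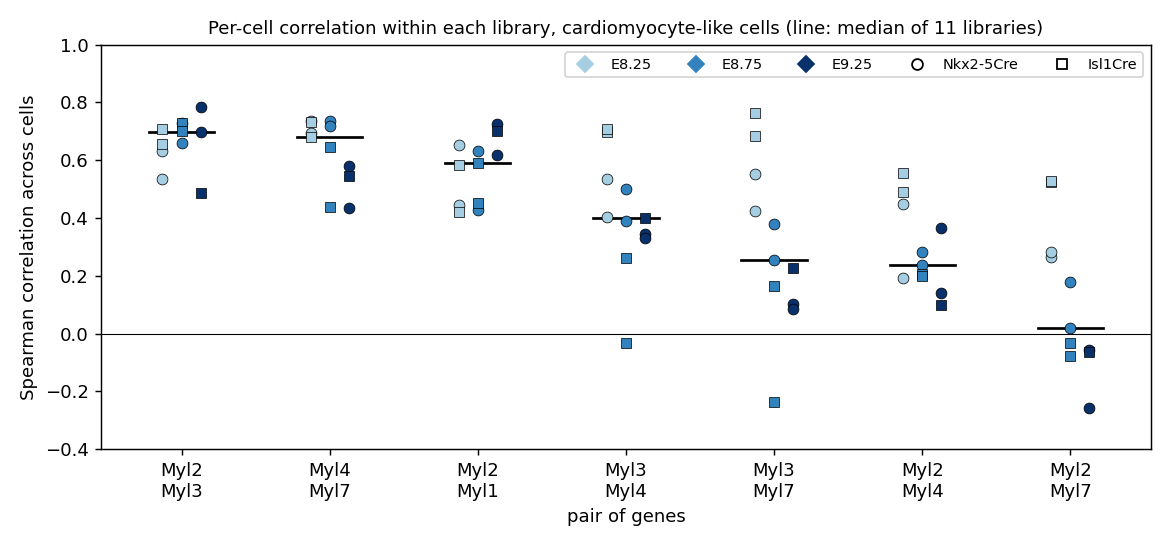
Spearman correlation across cardiomyocyte-like cells (vertical axis) for 7 pairs of light chain genes. Each point is 1 of 11 libraries, shaded by stage, with circles for Nkx2-5Cre and squares for Isl1Cre, and black lines are medians. Myl2 with Myl3 and Myl4 with Myl7 stay above 0.43 in every library, while Myl2 with Myl7 is positive at E8.25 and below 0 in all 3 libraries of E9.25.

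Genes whose library means were most like a member's were found over the 15 libraries by Pearson's r of log2(CPM + 1). For Myl2 they were Smpx, a small muscle protein (r = 0.991), Myh7, the slow myosin heavy chain (0.989), and Apobec2 (0.988). For Myl3 they were Mybpc3, cardiac myosin-binding protein C (0.992), Acta2, smooth muscle actin (0.991), and Crip1 (0.990). For Myl4 they were Acta2 (0.991), Tnni1, slow troponin I (0.984), and Pdlim5 (0.981). For Myl7 they were Tnnc1, cardiac troponin C (0.990), Crip2 (0.990) and Tpm1, a tropomyosin (0.988). For Myl1 they were Fam195a (0.979), Gmpr (0.977) and Mybphl (0.976). The libraries share their stages and lineages, so these values describe 8 group patterns, and among the members themselves r with Myl2 was 0.949 to 0.978.

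Other genes of the myosin motor were compared through lists of known roles. Averaged over stages, 4 of 5 tested of 7 other light chain genes were lower in Isl1Cre, where 3.68% of all tested genes were: Myl9, the regulatory chain of smooth muscle and nonmuscle cells (-0.65 ± 0.10), Mylpf, that of fast skeletal muscle (-0.51 ± 0.15), Myl12b and Myl6. Their median over tested members was -0.36, against -0.01 over all tested genes. Both cardiac heavy chains were lower, Myh6 by 0.49 ± 0.09 and Myh7 by 0.47 ± 0.09, of 3 tested of 8 sarcomeric heavy chains. At E8.25 Myh7 was lower in Isl1Cre (-0.77 ± 0.17, limma adjusted p = 0.0121) and Myh6 was not called. The averages do not hold at every stage. Mean Myh7 was higher in Isl1Cre at E8.75 (918 against 778 CPM) and in its single E9.25 library (1937 against 1242 CPM). Mean Myh6 was lower in Isl1Cre at E8.75 (1350 against 1900 CPM) and higher at E9.25 (1264 against 1081 CPM).

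Of 7 thick filament partners 5 were tested and 4 were lower in Isl1Cre on average, where 3.68% of all tested genes were called lower. These were Smyd1 (-0.78 ± 0.15) and Unc45b (-0.42 ± 0.10), which assist myosin assembly, Mybphl (-0.78 ± 0.22) and Mybpc3 (-0.53 ± 0.08), while Hsp90aa1 was higher. In either direction, limma called 784 of 10665 tested genes between the lineages on average. Of 10 tested kinases and phosphatase subunits that act on regulatory chains, it called 0. Mylk3, the cardiac light chain kinase, rose from E7.75 to E8.25 in Nkx2-5Cre (2.34 ± 0.24) and in Isl1Cre (2.40 ± 0.24). Of 15 regulators of light chain genes, Irx4, a ventricular transcription factor, was lower in Isl1Cre on average (-0.50 ± 0.14) and Nkx2-5 was higher (0.28 ± 0.09). Mean Irx4 was lower in Isl1Cre at E7.75 and E8.25, but higher at E8.75 (86.5 against 77.9 CPM) and E9.25 (75.0 against 66.2 CPM). Mean Nkx2-5 was lower in Isl1Cre at E7.75 (197 against 246 CPM) and higher at the later stages. Of 3 tested nonmuscle and smooth muscle heavy chains limma called 0 on average.

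Markers of other cells moved beside the light chain genes. Endoderm markers (11 genes) summed to 3099 to 3158 CPM in the Isl1Cre E8.25 libraries and 766 to 932 CPM in the Nkx2-5Cre E8.25 libraries, and to 2248 to 2956 against 1743 to 2416 CPM at E7.75. Krt8 and Krt18 weighed most in the E8.25 sums, with means of 1750 and 856 CPM in Isl1Cre and 588 and 214 CPM in Nkx2-5Cre. Spink1 averaged 284 CPM in Isl1Cre and 41.6 CPM in Nkx2-5Cre at E8.25. Both Nkx2-5Cre E8.25 libraries had 0 endoderm-like cells, so these sums do not measure the number of endoderm cells. Endothelial markers (15 genes) summed to 296 to 503 CPM against 447 to 584 CPM at E8.25. Heart progenitor markers (13 genes) summed to 162 to 186 CPM in Isl1Cre and 97.2 to 118 CPM in Nkx2-5Cre at E8.25, with no overlap. Smooth muscle markers (4 genes), which young cardiomyocytes also express, summed to 603 to 700 CPM in Isl1Cre and 1624 to 1708 CPM in Nkx2-5Cre at E7.75. Without endothelial-like and endoderm-like cells 5 of 5 light chain genes were still called lower in Isl1Cre at E7.75, where limma called 790 of 10543 genes in either direction, and at E8.25, where it called 463.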

How the data were processed

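The deposited values are CPM per gene and cell, made by the authors; TopHat2 2.0.12, HTSeq, CASAVA 1.8 and mm10 are named in the submitters' processing notes. Per the labels' protocols, an oligo(dT) primer with molecular identifiers was used and 3′ ends were captured, so counts do not scale with gene length. Low values were whole multiples of 1 count (100%, tolerance 0.1 of a step), which gave back the counts, with no word on whether they are reads or identifiers. Cells needed 2000 counts and 1000 genes. Doublets were not called, since cells were picked singly.

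Library mean CPM was scaled by TMM and tested as log2(CPM + 1) with limma 3.58.1 for 10665 genes (5 CPM or more in 2 libraries; 7 residual degrees of freedom; Benjamini-Hochberg threshold 0.05). edgeR 4.0.16 and DESeq2 1.42.0 on recovered counts were alternatives. Cells were clustered with leidenalg 0.10.2 without the 5 genes; a cluster was named where at least 3 markers, and a share of 0.5 of its class's list, were 3-fold above the 0.25 quantile of the other clusters, with at least 1 among its top 10 genes, a rule set after seeing the data. Replicate numbers do not pair libraries across groups (21 pairs of groups, median r 0.0177).

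Members and gene lists were chosen with earlier results of these data known. All members are named; the 3 most alike genes per member and up to 4 called genes per partner list follow a fixed rule, while Mylk3, Hsp90aa1 and the leading genes of clusters were named after their values were seen. A planned p for the ventricular to atrial ratio is not given, since it scores the members together.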

Additional observations from a re-analysis of the deposited data

Results flagged for a closer look

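The change per day differed between the lineages for all 5 light chain genes by limma's test of the difference between slopes. Isl1Cre minus Nkx2-5Cre was 1.61 log2 units per day for Myl2, 1.56 for Myl3, 1.04 for Myl4, 0.99 for Myl1 and 0.69 for Myl7, where 1.88% of tested genes had a called positive difference. Without the single Isl1Cre E9.25 library that of Myl1 was 0.67 (limma adjusted p = 0.158). Within cardiomyocyte-like cells from E8.25 on, the difference was 1.49 ± 0.20 for Myl2, 1.28 ± 0.22 for Myl1, 1.05 ± 0.15 for Myl3 and 1.01 ± 0.16 for Myl4, each called, and 0.37 ± 0.12 for Myl7, which was not (limma adjusted p = 0.236). In these cells 0.509% of genes had a called positive difference.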

How the results depend on the processing

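Called values of single genes kept their call in 394 comparisons with another setting and lost it in 23, and with 1 library left out kept it in 545 and lost it in 9, with no called value reversed. With replicate number as a block, which does not pair libraries here, the count for the averaged lineage comparison was 5 as without it, and no count of members changed. The number of members called in the averaged lineage comparison went from 5 to 2 in cardiomyocyte-like cells, to 0 with groups averaged to 1 unit (1 gene of all tested called, against 784), to 2 without E7.75 libraries (260 genes called) and to 1 without E8.25 libraries (458). Fewer libraries or stages enter these fits.

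From E8.75 to E9.25 the Nkx2-5Cre count went from 1 to 2 in cardiomyocyte-like cells and to 0 without endothelial-like and endoderm-like cells, an alternative chosen after seeing the data, and the Isl1Cre count from 1 to 0 with no filter on low values. The cause was not tested. With 1 library left out both counts ranged from 0 to 1. The counts at E8.25 between lineages, from E8.25 to E8.75 in Isl1Cre and for slopes ranged from 4 to 5, and the others did not change. The lineage difference in cells high in Myl2 ranged from -10.3 to 0.27 points, the latter without Nkx2-5Cre E9.25 replicate 1. That of the median ventricular to atrial ratio, -0.04, ranged from -0.15 to 0.02, and was 0.21 with a pseudocount of 1000 CPM and 0.36 for Myl2 against Myl4 alone.

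Values that were not called and changed direction were small. Myl2 between lineages at E8.75 (0.0006) was -0.0016 without TMM, -0.1166 with summed counts, -0.1151 by edgeR, -0.1205 by DESeq2 and -0.0249 thinned, and ranged from -0.0817 to 0.1009 with 1 library left out (-0.0086 without Isl1Cre E8.75 replicate 1). Myl4 there ranged from -0.3531 to 0.0211 and Myl7 from -0.1547 to 0.0007, the upper ends without Nkx2-5Cre E8.75 replicate 2. Myl4 from E8.25 to E8.75 in Nkx2-5Cre was -0.0150 in cells of 20000 counts or more, -0.0064 thinned, -0.1274 in cardiomyocyte-like cells and -0.0357 without endothelial-like and endoderm-like cells, and ranged from -0.1506 to 0.2224 with 1 library left out. From E8.75 to E9.25 in Nkx2-5Cre, Myl1 was 0.1157 in cardiomyocyte-like cells and 0.1478 without endothelial-like and endoderm-like cells, and ranged from -0.1453 to 0.0421 with 1 library left out. Myl3 was 0.0695 and 0.0736 in those same sets of cells. Thinning to 5000 counts lowered the number of all genes called between lineages to 235 from 784 on average and to 141 from 545 at E8.25, and DESeq2 raised the number at E8.25 to 961 from 545.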
